A study of Mus musculus with 67 samples.

Results

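The elements described here were those open in neuromesodermal progenitors (NMPs) and again, or still, in p3 progenitors, and less open in the neighbouring types of neural progenitor (NP). An element is a stretch of accessible chromatin in the authors' consensus set. Of 111638 elements, 236 met the rule, which is 0.211% of them. The rule used mean values per day and cell type with the concentrations of SAG pooled. Day 3 NMPs and day 6 p3 NPs both had to be at least 1 above each of day 6 p0-1, p2 and pMN, and both at least 6.5. Values are variance-stabilized log2 counts (VST), on which 1 unit is close to a 2-fold difference at high counts and a level of 6.5 stands for 78.0 normalized counts. The members were thus chosen by measured values, and their levels at day 3 and day 6 are given as a description with no test. Days 4 and 5 took no part in the choice of members, and the tests between cell types and between days use those days.

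Accessibility was measured by CaTS-ATAC, in which cells are fixed, tagmented with Tn5, stained for transcription factors inside the nucleus and sorted by flow cytometry before bulk libraries are made. All 67 samples came from the mouse embryonic stem (ES) cell line HM1, differentiated with bFGF and LGK until day 2 and with bFGF, CHIR99021, SB-431542 and DMH1 until day 3. The 3 NMP samples were taken at day 3 with 0 nM SAG. From day 3 all NPs received retinoic acid, with 0, 10, 100 or 500 nM of SAG, an agonist of Smoothened that stands in for Sonic hedgehog (Shh). The p3 samples came from 100 and 500 nM (n = 5, 5 and 4 at days 4, 5 and 6) and were gated as NKX2.2 positive and OLIG2 negative. The pMN samples, gated on OLIG2, came from the same concentrations (n = 6, 5 and 4). The p2 samples, with NKX6.1 and PAX6, came from 10 and 100 nM (n = 6, 6 and 6). The p0-1 samples, with PAX6 and without NKX6.1, came from 0 and 10 nM (n = 6, 6 and 5). Cell type and SAG concentration therefore cannot be told apart between p3 and p0-1, and only in part between p3 and p2.

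NMPs are bipotent cells of the posterior embryo that give rise to spinal cord and to paraxial mesoderm, and they are maintained by Wnt and FGF signals through factors such as T and the CDX proteins. p3 progenitors form the most ventral NP domain next to the floor plate, arise under the highest Shh signal and produce V3 interneurons. FOXA proteins are forkhead factors that can bind nucleosomal DNA. FOXA2 acts in the node, notochord, endoderm and floor plate, and in the ventral neural tube it is expressed early in cells exposed to Shh.

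The deposited elements can be shown as DNA. The following 5 central windows come from among the 10 members with the largest margin, which is the lower of the NMP and day 6 p3 means minus the highest mean of day 6 p0-1, p2 and pMN. Each held the forkhead motif TGTTTAC (called FOXA here) or its variant TGTTTGC on either strand, and the capitals mark each match. Each is the plus strand of the mm10 (GRCm38) reference.
Tuft1 chr3:94649160-94649459: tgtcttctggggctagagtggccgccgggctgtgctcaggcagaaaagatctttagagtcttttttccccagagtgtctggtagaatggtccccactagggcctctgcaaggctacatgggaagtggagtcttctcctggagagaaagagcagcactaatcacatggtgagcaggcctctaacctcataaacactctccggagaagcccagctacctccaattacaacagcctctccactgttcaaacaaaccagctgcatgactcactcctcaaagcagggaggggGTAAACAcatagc
Apela chr8:65046548-65046847: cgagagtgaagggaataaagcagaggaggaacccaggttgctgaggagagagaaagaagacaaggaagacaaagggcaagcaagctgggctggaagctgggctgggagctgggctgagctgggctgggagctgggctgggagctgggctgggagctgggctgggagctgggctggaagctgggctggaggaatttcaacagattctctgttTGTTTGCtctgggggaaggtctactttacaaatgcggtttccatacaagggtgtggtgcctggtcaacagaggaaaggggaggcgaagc
Polr2m chr9:71493232-71493531: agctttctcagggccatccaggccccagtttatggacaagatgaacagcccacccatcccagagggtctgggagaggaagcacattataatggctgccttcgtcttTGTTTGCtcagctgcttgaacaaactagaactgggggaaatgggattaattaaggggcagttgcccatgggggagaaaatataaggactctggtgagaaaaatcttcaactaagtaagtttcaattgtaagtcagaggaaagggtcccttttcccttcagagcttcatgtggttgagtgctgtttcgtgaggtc
Sort1 chr3:108287884-108288183: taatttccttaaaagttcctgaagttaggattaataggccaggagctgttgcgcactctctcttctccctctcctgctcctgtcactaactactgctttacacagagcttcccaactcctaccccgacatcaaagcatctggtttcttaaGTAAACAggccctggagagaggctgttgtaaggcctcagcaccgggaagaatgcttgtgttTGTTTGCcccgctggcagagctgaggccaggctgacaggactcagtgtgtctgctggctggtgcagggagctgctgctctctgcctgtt
1700006H21Rik chr13:107676491-107676790: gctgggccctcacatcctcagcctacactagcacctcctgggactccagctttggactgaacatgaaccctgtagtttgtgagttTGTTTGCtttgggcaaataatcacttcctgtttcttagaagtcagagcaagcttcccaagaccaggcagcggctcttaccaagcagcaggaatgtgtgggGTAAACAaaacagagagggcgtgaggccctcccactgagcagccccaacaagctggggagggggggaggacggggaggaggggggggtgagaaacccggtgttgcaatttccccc

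The Tuft1 and Sort1 windows lay in introns of those genes, and none of the 5 windows overlapped a RefSeq exon. The elements named for Apela, Polr2m and 1700006H21Rik lay between genes in the deposited annotation and carry the name of the nearest annotated start site. In that sense each name is a position and not an assigned target. The windows of the members nearest the Shh and Disp1 genes are shown for contrast, because they belong to the Hedgehog pathway and held no match to either motif.
Shh chr5:28469751-28470050: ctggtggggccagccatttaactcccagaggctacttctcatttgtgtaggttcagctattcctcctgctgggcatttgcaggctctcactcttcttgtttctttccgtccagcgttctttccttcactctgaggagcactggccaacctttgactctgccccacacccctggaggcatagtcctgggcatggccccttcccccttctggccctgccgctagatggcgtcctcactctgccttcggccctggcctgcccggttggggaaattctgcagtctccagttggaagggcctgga
Disp1 chr1:183252554-183252853: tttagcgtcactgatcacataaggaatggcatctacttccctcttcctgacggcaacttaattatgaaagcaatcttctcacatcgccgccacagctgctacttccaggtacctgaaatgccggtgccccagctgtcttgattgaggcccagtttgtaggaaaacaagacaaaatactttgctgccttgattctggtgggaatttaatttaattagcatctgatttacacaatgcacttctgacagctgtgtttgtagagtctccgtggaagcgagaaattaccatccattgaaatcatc

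Over the 236 members, the central 300 bp held FOXA in 27 (11.4%, 95% Wilson interval 7.98 to 16.1%) and the variant in 29 (12.3%). Either motif was found in 49. In the same windows of all elements the shares were 4.95% and 7.30%. Of the 15378 elements open in NMPs and at least 1 lower in each day 6 NP (NMP only), 3.55% held FOXA and 5.03% the variant. Of the 5730 elements open in day 6 p3 and at least 1 lower in NMPs and in each other day 6 NP (p3 only), 12.4% and 18.2% did. Members were left out of both sets, also where they met these limits. The members' share of FOXA was thus near that of the p3-only set and above that of the NMP-only set, as a description. Among the classes defined below, FOXA was in 19 of 149 kept members and 1 of 24 reopened ones.

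Other motifs were searched in the same windows, on both strands. The ZIC letters CAGCAGG were in 22.0% of members and 12.7% of all elements, OTX-type TAATCC in 12.7% and 8.29%, homeodomain TAATTA in 12.3% and 7.84%, and T-box AGGTGTGA in 2.12% and 1.06%. The SOX2-type letters ACAATGG were in 3.81% of members against 7.43% of all elements, NKX2 CACTTAA in 1.69% against 3.46% and GLI GACCACCC in 0.424% against 0.928%. The members' windows had a median GC content of 50.0%, between the 53.0% of NMP-only and the 45.3% of p3-only elements, and the median over all elements was 48.0%. A match is a run of letters and not a measured binding event.

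NMP-high elements, those at least 6.5 in NMPs and at least 1 above day 6 p0-1, p2 and pMN, numbered 16291 (14.6% of all elements). The same rule for day 6 p3 gave 6190 p3-high elements (5.54%). The members, which are the elements in both sets, were 1.45% of the NMP-high and 3.81% of the p3-high elements. The members nearest the threshold were an intron of Vgll4 (margin 1.00), an intron of Vwa3a (1.00) and an intergenic element near Gm10646 (1.01). Those just outside it were the Ubxn10 promoter, with a margin of 0.9997, and intergenic elements near Cracr2a (0.9987) and 4921525O09Rik (0.9983).

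The members were mostly distal. Introns held 115 of them (48.7%, against 41.1% of all elements) and intergenic DNA held 102 (43.2%, against 44.2%). Promoters held 9 (3.81%), a smaller share than the 7.41% of all elements. The median distance to the nearest annotated start site was 21304 bp, against 32610.5 bp over all elements. Members were wider, with a median of 1688.5 bp against 883 bp, and had a higher mean normalized count, with a median of 82.7 against 41.4. The rule asks for a minimum level in NMPs and day 6 p3, so the higher count was in part set by the choice of members. NMP-only elements, chosen with that level in NMPs, had medians of 1191 bp and 47.4. The p3-only elements, chosen with it in day 6 p3, had medians of 913 bp and 48.6. They were annotated to 228 genes, of which 8 had 2 members each (Mreg, Egfl7, Hipk2, Bmp7, Wasf2, Mir701, Arid3b and B930025P03Rik). Only 8 pairs of neighbouring members lay within 50000 bp of each other.

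**Figure D1:**
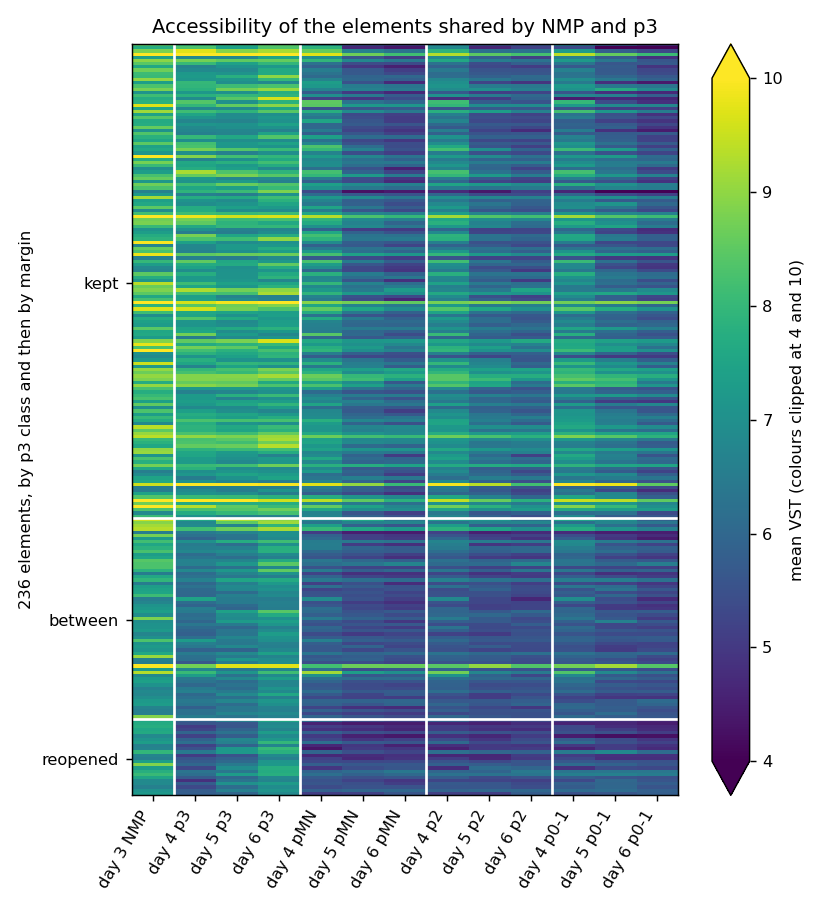
Mean VST of the 236 members (rows, grouped as kept, between and reopened and sorted by margin) in day 3 NMPs and in each NP type at days 4, 5 and 6 (columns). The p3 columns stay bright in the 149 kept members and dim at day 4 in the 24 reopened members. The dark day 6 columns of p0-1, p2 and pMN are fixed by the rule.

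What p3 did between day 3 and day 6 sorted the members into 3 classes. Kept members, 149 of the 236 (63.1%), had p3 means of at least 6.5 at both day 4 and day 5 and never more than 1 below the lower of NMP and day 6 p3. Reopened members, 24 (10.2%), fell under 6.5 at day 4 or day 5 and at least 1 below both ends. The remaining 63 (26.7%) were between. The median depth of the dip was 0.13 in kept, 0.73 in between and 1.34 in reopened members, where it ranged from 1.01 to 2.07. The classes rest on measured p3 values of days 4 and 5 and are not a test.

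Taken per sample, the median VST over the 236 members was 7.57 to 7.92 in NMPs. At day 4 it was 6.87 to 7.43 in p3, 6.33 to 6.66 in p0-1, 6.28 to 6.76 in p2 and 6.42 to 6.75 in pMN. At day 5 the ranges were 6.81 to 7.42 in p3, 5.81 to 6.25 in p0-1, 5.67 to 6.29 in p2 and 5.73 to 6.01 in pMN. The p3 samples did not overlap those of any other NP type at day 4 or day 5. All NP types were lower than the NMPs at these days. At day 6, where the rule acts, p3 was 7.11 to 7.90 and the other types were 5.39 to 5.99, 5.41 to 6.47 and 5.44 to 6.02.

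In p3 the reopened class went from 7.31 to 7.33 in NMPs to 5.47 to 5.75 at day 4, 6.05 to 6.51 at day 5 and 6.59 to 7.74 at day 6. At day 4 the p3 range of these 24 members overlapped those of p0-1 (5.35 to 5.72), p2 (5.29 to 5.72) and pMN (5.09 to 5.69). At day 5 it lay above all of them, the highest being 5.15 to 5.60 in p0-1. The kept class, in contrast, was at 7.43 to 7.87 in p3 at day 4, above the 6.80 to 7.36 of pMN. The p3 levels of both classes at days 4 and 5 are in part set by the sorting.

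**Figure D2:**
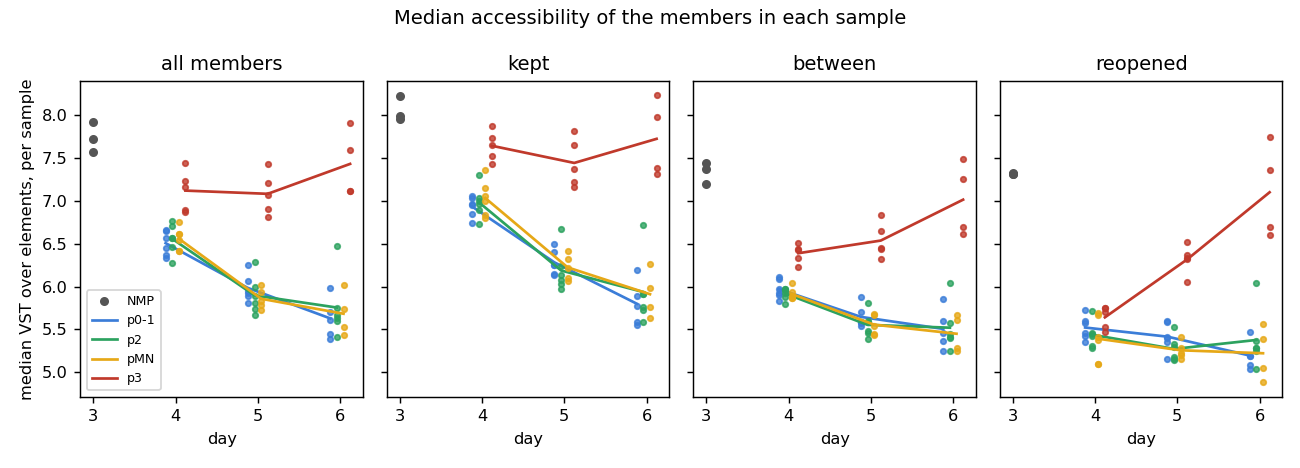
Median VST over all members and over each class, with 1 point per sample, by day on the horizontal axis and with lines through the group means. The p3 samples lie above the other NPs at days 4 and 5 for all members, and for the reopened members they overlap the other NPs at day 4 and separate at day 5. The classes were sorted by p3 values of days 4 and 5.

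Relative to NMPs, the median member was 0.77 lower in p3 at day 4 and 1.22 to 1.27 lower in the other NPs. At day 5 it was 0.59 lower in p3 and 1.72 to 1.82 lower in the others. At day 6 it was 0.25 lower in p3, and 79 members were higher in p3 than in NMPs. Fewer members were open in the other NPs at day 5 than at day 4. Of the 236, 116 in p0-1, 124 in p2 and 124 in pMN were still at 6.5 or above at day 4, and 73, 55 and 59 at day 5. The share of NMP-only elements at this level fell as well, from 37.7, 35.1 and 34.3% to 26.8, 24.5 and 24.2%. Over all elements it was 30.1 to 31.0% at day 4 and 32.1 to 33.0% at day 5. Members and NMP-only elements were both chosen to be lower in these types at day 6 than in NMPs. Their fall by day 5 is in part set by that choice.

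The libraries held between 9298160 and 29985325 reads in elements, with a median of 20254011, and the shallowest were those of day 4 p3 at 100 nM SAG (9298160 to 13974633). The element near the start of T, the brachyury gene of NMPs, was at 10.21 in NMPs and at most 8.11 in NPs, and that of the pluripotency gene Pou5f1 was at 10.54 and at most 6.84. Olig2 was highest in pMN (10.42 to 11.19) and Pax6 lowest in p3 from day 4 among NPs (10.73 to 11.10), while the promoter of Nkx2-9 was at 10.90 to 11.22 in p3 and at 10.79 to 11.03 in pMN. No value is given for 5 of 45 marker entries, Nkx2-2 among them, so the defining p3 marker was not checked. One library stood apart, day 6 p2 with 100 nM SAG, replicate 3. Its median over the members was 6.47, against 5.41 to 5.75 in the other 5 day 6 p2 samples, and without it the rule found 250 elements, which included all 236.

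Day 6 p3 comprised replicates 2 and 3 only, and these differed at the members, with sample medians of 7.11 and 7.11 in replicate 2 and 7.60 and 7.90 in replicate 3. Members chosen without replicate 2 were 375, of which 124 (33.1%) met the whole rule in replicate 2 alone and 371 (98.9%) were higher in its NMP and p3 than in its p0-1, p2 and pMN. The latter share was 10.1% over all elements. Members chosen without replicate 3 were 198, of which 121 (61.1%) met the rule in replicate 3 and 190 (96.0%) were higher, against 16.6% of all elements.

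Markers of neighbouring and unrelated cell types were read at the same scale, since the p3 gate does not sort on a floor plate protein. The floor plate entries Foxa1, Ntn1, Spon1 and Shh were each higher in day 6 p3 than in any other day 6 NP. The Foxa1 promoter was at 9.67 in NMPs, 9.68 in day 6 p3 and 9.07 to 9.18 in the others, Ntn1 at 10.45, 10.78 and 10.47 to 10.70, and Spon1 at 9.30, 9.51 and 8.90 to 9.02. The Shh entry is itself a member. Among endoderm and axial mesoderm entries, Noto was at 7.03 in NMPs and 4.44 in day 6 p3, below the 4.51 to 4.61 of the other NPs, and Sox17 was at 8.80 in NMPs and 6.70 in day 6 p3, within the 6.58 to 6.79 of the others. Of the 2 paraxial mesoderm entries, Tbx6 was lowest in day 6 p3 among day 6 NPs (9.45 against 9.60 to 9.76) and Meox1 highest (9.76 against 8.04 to 8.46). The part of floor plate or other cells in the members' p3 values was not tested, and in bulk samples more cells of a type and more accessibility per cell cannot be told apart.

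Whether p3 already differed at day 4 was tested for all elements with limma, calling an element at a Benjamini-Hochberg adjusted p under 0.01 and a difference over 1 VST unit. Against p0-1, 47 members were higher in p3, where 4.31% of all elements were, and 0 were lower, where 2.53% were. Without replicate 3, 28 were higher, where 1834 of all elements were, against 4811 in the main fit. Against p2, 40 were higher and 0 lower, against 2.55% and 4.97% of all elements. Against pMN, 28 were higher and 1 was lower, against 2.19% and 5.4%. The exception was the element near Pck1, with mean VST of 8.05 in p3 and 9.14 in pMN, a difference of -1.09 ± 0.15 (SE, adjusted p = 2.33e-05). The number of members lower than in pMN at day 4 was 0 without replicate 2, 3 without replicate 3 and 2 with the replicate block. Over all elements it was 6150, 6410 and 6401, against 6032 in the main fit. The median difference of the members was 0.53, 0.55 and 0.52 against p0-1, p2 and pMN, while those of all elements were -0.02, 0.00 and 0.00. A positive difference was seen in 207, 216 and 209 members, and in 46.8%, 49.8% and 50.0% of all elements.

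At day 5 the difference was wider. In the comparison with p0-1, 122 members were higher in p3 and 0 lower, where 9.47% and 9.75% of all elements were. With p2, 158 were higher and 0 lower, where 8.33% and 12.4% of all elements were. With pMN, 154 were higher and 0 lower, where 8.39% and 12.1% were. The median differences were 1.01, 1.15 and 1.16, and 236, 236 and 235 members were positive. Over all elements 50.3%, 53.2% and 52.4% were positive. In all 3 comparisons 96 members were called higher at day 5, where 5.69% of all elements were, and 22 at day 4 (1.48% of all elements). On both days 20 members were called in all 3, where 1.25% of all elements were. Those 20 included the elements of Kctd14, Apela and 1700006H21Rik and one of the pair in Hipk2. The members were chosen on day 6 samples that may come from the same differentiations as those of days 4 and 5, so these counts describe how early the difference was present rather than a separate set of cultures.

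The members stood between the p3-only and NMP-only sets. Both sets were chosen on day 3 and day 6 means and leave out the members. The NMP-only set therefore holds no element with day 6 p3 at least 6.5 and at least 1 above the other day 6 NPs. Its share below is in part set by that choice. Of p3-only elements, 34.2%, 26.9% and 22.2% were called higher in p3 at day 4 and 76.6%, 80.3% and 78.7% at day 5, against p0-1, p2 and pMN respectively. Of NMP-only elements, at most 0.55% were in any of these comparisons. The members' shares were 19.9%, 16.9% and 11.9% at day 4 and 51.7%, 66.9% and 65.3% at day 5.

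**Figure D3:**
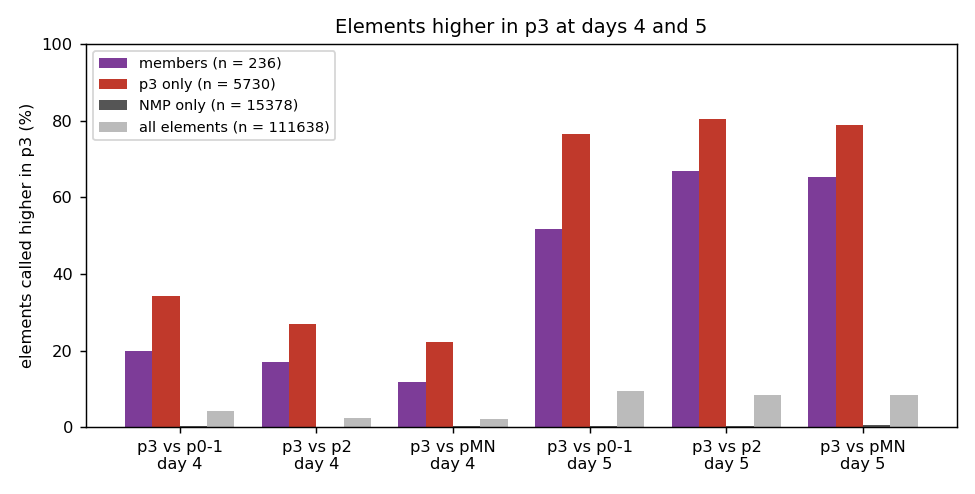
Share of elements called higher in p3 (percent, vertical axis from 0 to 100) than in each other NP type at days 4 and 5, for the 236 members, 5730 p3-only, 15378 NMP-only and all 111638 elements. Bars of the members lie between those of the p3-only and NMP-only sets in each of the 6 comparisons.

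From day 4 to day 5 the median member was lower in p0-1, p2 and pMN. In p3, 10 members rose and 6 fell, where 9.22% and 3.23% of all elements did, with a median change of 0.03. The sign of this median depended on the setting, at -0.11 among elements with a mean over 100 normalized counts, -0.03 without replicate 1 and 0.11 without replicate 2. Without replicate 2, 2 members fell in p3, where 2773 of all elements did, against 3610 in the main fit. In p0-1, 0 rose and 26 fell, against 10.8% and 3.74% of all elements, with a median of -0.40. In p2, 1 rose, the element near 4930579D09Rik, and 43 fell, against 11.3% and 4.48%, with a median of -0.49. In pMN, 0 rose and 58 fell, against 11.2% and 4.39%, with a median of -0.56. The median change of NMP-only elements was negative in every type, p3 included, at -0.39 in p3 and -0.41 to -0.42 in the others.

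A test of the difference itself, the change in p3 against the mean change in p0-1, p2 and pMN, was added after seeing these values. It called 38 members (16.1%) more positive in p3 and 0 more negative, where 2.64% and 2.66% of all elements were. Of p3-only elements 30.5% were called more positive, a larger share than of the members, and of NMP-only elements 0.208%. Without replicate 1 it called 20 members and 1494 of all elements more positive, against 2949 of all elements in the main fit. The median difference was 0.58 over the members and 0.80 over p3-only elements. It was positive in 228 of 236 members, in 96.5% of p3-only elements and in 49.8% of all elements. Members and p3-only elements were both chosen to be higher in p3 than in these types at day 6. The direction of the difference in change is in part set by that choice.

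The 10 members that rose in p3 were those of Bicc1 (1.67), Gm35135 (1.71), Abhd2 (1.52), Disp1 (1.67), 4930579D09Rik (1.64), Plekhg6 (1.33), Dnmt1 (1.16), Csmd2os (1.45), 4930556M19Rik (1.01) and Max (1.29), in VST units. The 6 that fell were those of Slc25a44 (-1.01), Kif5b (-1.39), Slc1a3 (-1.12), Tmem45b (-1.24), Timp4 (-1.46) and Mir3471-2 (-1.07). Bicc1 encodes an RNA-binding protein known from left-right patterning at the node, Dnmt1 the maintenance DNA methyltransferase and Max the partner of MYC proteins.

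The concentration of SAG was compared within p3, between 500 and 100 nM with day as a term. The fit held 6 and 8 samples and included the 4 of day 6, whose values the rule used. By limma 0 members were called higher and 0 lower, as were 0% of all elements in both directions. At an unadjusted p under 0.05, 10 of the 236 members were higher and 0 lower, where 2311 and 1536 of the 111638 elements were. The difference was positive in 201 members (85.2%) and in 54.1% of all elements. The median difference of the members was 0.15, and it was 0.01 without replicate 3 and 0.25 without replicate 2. With days 4 and 5 only (4 and 6 samples), a choice made after seeing the data, 0 members were called in either direction and the median difference was 0.14, against 0.03 over all elements. At an unadjusted p under 0.05, 14 members were then higher and 0 lower, where 2491 and 1131 of all elements were. The difference was then positive in 188 members (79.7%) and in 56.1% of all elements. A difference between the concentrations was not detectable for any single member.

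Among the regulators, the element at Foxa2 was the most accessible of the 10 with the largest margin. Foxa2 encodes the forkhead factor of node, notochord and floor plate described above. The element, chr2:148044037-148046986, was annotated as promoter, with its centre 1458 bp from the start site, and was a kept member. Its normalized counts were 1266, 1532 and 1685 in the 3 NMP samples. In p3 they were 1115, 1174, 1189, 1411 and 1601 at day 4, 1078, 1210.0, 1313, 1440.4 and 1639 at day 5 and 1240.0, 1268, 1927 and 2215 at day 6. The p3 samples therefore stayed in the range of NMPs or close to it. In the other NPs the counts were between 349 and 1231 (median 674, n = 18) at day 4, so that the groups overlapped there, and between 251 and 529 (median 361, n = 17) at day 5, below every p3 sample. At day 6 they were between 207 and 566 (median 256, n = 15). On the VST scale p3 exceeded p0-1, p2 and pMN by 1.81 ± 0.10 (adjusted p = 1.14e-09), 1.89 ± 0.16 (adjusted p = 1.21e-07) and 1.71 ± 0.15 (adjusted p = 1.51e-07) at day 5, as differences ± SE by limma. At day 4 the difference from pMN was 0.61 ± 0.17 (adjusted p = 0.0119), which was not called.

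Shh encodes the ligand that patterns the ventral neural tube and is made by notochord and floor plate. The member nearest to it, chr5:28469585-28470217, was annotated at -2800 bp, upstream of the Shh start site, and overlapped an intron of the non-coding gene 9530036O11Rik. Its window, printed above, held no forkhead match. NMP samples had normalized counts of 257, 278 and 290.0. In p3 the counts were 96.9, 107, 121, 131 and 133 at day 4, 161, 177, 201, 227 and 228 at day 5 and 193, 204, 347 and 377 at day 6. The day 4 values lay below those of NMPs, and those at day 5 lay above all other NPs, which were between 63.2 and 97.4 (median 78.3, n = 17). At day 4 the other NPs were between 70.0 and 148 (median 87.4, n = 18), overlapping p3. The difference from pMN was 0.51 ± 0.13 (adjusted p = 0.0054) at day 4 and 1.29 ± 0.12 (adjusted p = 3.44e-07) at day 5 by limma. Within p3 day 5 exceeded day 4 by 0.69 ± 0.14 (adjusted p = 0.000997), short of the difference over 1, and this element belonged to the between class.

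Disp1 encodes Dispatched 1, the transporter that releases lipid-modified Hedgehog ligands from the cells that make them. Its member, chr1:183252095-183253313, lay between genes at -31175 bp from the start site and was a reopened member. Normalized counts in NMPs were 60.6, 103 and 124. In p3 they were 28.4, 30.3, 31.6, 38.2 and 39.5 at day 4, 92.5, 99.3, 132, 146 and 219 at day 5 and 192, 229, 244 and 348 at day 6. The day 4 values were below all NMP samples, and all day 6 values exceeded them. In the other NPs the counts were between 6.09 and 16.3 (median 11.5, n = 18) at day 4 and between 14.2 and 33.0 (median 19.7, n = 17) at day 5, so p3 was above every other sample on both days. The differences from p0-1, p2 and pMN were 0.92 ± 0.15 (adjusted p = 0.00049), 0.96 ± 0.15 (adjusted p = 0.000118) and 1.17 ± 0.14 (adjusted p = 1.01e-05) at day 4 by limma. At day 5 they were 2.11 ± 0.20 (adjusted p = 2.1e-07), 2.16 ± 0.20 (adjusted p = 4.07e-07) and 2.13 ± 0.21 (adjusted p = 3.99e-07). Within p3 it rose by 1.67 ± 0.20 (adjusted p = 1.05e-05). Sufu, an inhibitor of GLI factors, had a kept member in an intron at chr19:46434306-46436209, where p3 exceeded pMN by 0.80 ± 0.21 (adjusted p = 0.00388) at day 5, short of a difference over 1.

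Lmx1b encodes a LIM homeodomain factor expressed in the floor plate and in the isthmus. Its member, chr2:33580294-33584255, lay in an intron and was kept. The counts were 405, 469 and 499 in NMPs, 275, 284, 311, 413 and 607 in p3 at day 4, 323, 361, 387, 507 and 646 at day 5 and 516, 533, 1065 and 1400.2 at day 6. The 2 higher day 6 samples were both of replicate 3. Other NPs were between 129 and 284 (median 174, n = 18) at day 4 and between 101 and 217 (median 137, n = 17) at day 5, with no overlap at day 5. By limma the difference from pMN was 0.93 ± 0.19 (adjusted p = 0.00115) at day 4 and 1.61 ± 0.16 (adjusted p = 5.68e-07) at day 5.

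Slit1 and Slit3, which encode secreted axon repellents of the ventral midline, each had an intronic member. That of Slit3, chr11:35325046-35329118, was kept, with mean VST of 9.83 in NMPs and 8.52, 8.62 and 8.65 in p3 at days 4, 5 and 6. It exceeded p0-1, p2 and pMN by 1.31 ± 0.13, 1.38 ± 0.15 and 1.18 ± 0.16 at day 5 (limma, adjusted p = 3.3e-07, 1.51e-06 and 1.29e-05). That of Slit1, chr19:41678931-41680645, was between, with 7.96 in NMPs and 6.64, 7.54 and 7.67 in p3, and it exceeded pMN by 1.36 ± 0.15 (adjusted p = 1.18e-06) at day 5.

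Cdx2, a caudal homeobox gene of the tailbud, gave the only member from 198 elements of the NMP and tailbud list. The member, chr5:147299055-147301491, lay in an intron 6976 bp from the start site and was kept. Counts were 1098, 1205 and 1242 in NMPs. In p3 they were 803, 808, 838, 1000.5 and 1093 at day 4, 659.5, 666, 764, 796 and 899 at day 5 and 694, 752, 846 and 884 at day 6. In the other NPs they were between 439 and 866 (median 546, n = 18) at day 4 and between 270.0 and 426 (median 319, n = 17) at day 5. The p3 samples thus overlapped the others at day 4 and not at day 5, where the differences were 1.19 ± 0.09 (adjusted p = 1.66e-08), 1.18 ± 0.11 (adjusted p = 4.88e-07) and 1.27 ± 0.10 (adjusted p = 6.11e-08) against p0-1, p2 and pMN by limma. The element nearest the Cdx2 start site, which is not a member, was at 11.84 in NMPs and 8.12 in day 6 p3, within the 8.10 to 8.44 of the other day 6 NPs.

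The largest margin, 2.81, belonged to an intronic element of Tuft1, chr3:94648686-94649934, 9562 bp from its start site. Tuft1 encodes tuftelin, known from enamel. The element was kept, and its window held FOXA near the 3′ end of the sequence printed above. Normalized counts were 318, 330.5 and 352 in NMPs. In p3 they were 182, 244, 245, 248 and 302 at day 4, 163, 165, 222, 266 and 319.9 at day 5 and 246, 270.2, 422 and 449.6 at day 6. In the other NPs they were between 50.0 and 168 (median 96.1, n = 18) at day 4, between 20.8 and 75.1 (median 32.6, n = 17) at day 5 and between 11.4 and 140.3 (median 28.3, n = 15) at day 6. Every p3 sample lay above every other NP sample at days 4 and 5. The same held at day 6, where the choice by margin had already set the order of the group means. By limma the differences were 2.25 ± 0.21 (adjusted p = 2.07e-07), 2.35 ± 0.24 (adjusted p = 9.44e-07) and 2.42 ± 0.18 (adjusted p = 2.67e-08) against p0-1, p2 and pMN at day 5, and 1.47 ± 0.19 (adjusted p = 7.54e-05), 1.31 ± 0.16 (adjusted p = 1.22e-05) and 0.91 ± 0.15 (adjusted p = 0.000126) at day 4. The highest day 6 sample outside p3 was the p2 library that stood apart.

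The element nearest Apela, a gene for a peptide ligand of the apelin receptor that acts in gastrulation, lay at -9362 bp from its start site, chr8:65046199-65047198. It did not dip in p3. Counts were 354, 436 and 513 in NMPs and above all of these in p3 at day 4, with 764, 769, 819, 899.9 and 938. They were 374, 405, 488, 506 and 587 at day 5 and 469.9, 527, 608 and 745 at day 6. In the other NPs counts were between 107 and 458 (median 216, n = 18) at day 4 and between 27.5 and 120.4 (median 53.9, n = 17) at day 5, always below p3. This element was called on both days in all 3 comparisons, with differences of 2.45 ± 0.17 (adjusted p = 4.86e-07), 1.85 ± 0.14 (adjusted p = 1.81e-07) and 1.15 ± 0.13 (adjusted p = 2.69e-06) at day 4 against p0-1, p2 and pMN by limma. At day 5 they were 3.08 ± 0.15 (adjusted p = 2.91e-10), 2.69 ± 0.20 (adjusted p = 4.17e-08) and 2.28 ± 0.13 (adjusted p = 3.36e-09). From day 4 to day 5 it fell in p0-1, p2 and pMN, with changes of -1.46 ± 0.18, -1.66 ± 0.20 and -1.95 ± 0.14 on the VST scale (adjusted p = 9.27e-06, 2.72e-06 and 4.16e-10).

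Bicc1 had an intronic member, chr10:71127685-71130779, with a margin of 2.55. Counts were 576, 716 and 935 in NMPs. In p3 they were 133, 176, 191, 194 and 213 at day 4, 498, 523, 561, 655 and 795 at day 5 and 408, 509.5, 518 and 557 at day 6. The other NPs had counts of between 83.6 and 266 (median 130.5, n = 18) at day 4, which overlapped p3, and between 76.8 and 269.6 (median 127, n = 17) at day 5, which did not. The rise within p3 was 1.67 ± 0.15 (adjusted p = 6.84e-07) by limma, and the change differed from that in the other NPs by 1.66 ± 0.26 (adjusted p = 6.31e-06). The day 4 mean stayed at 7.59, above 6.5, so the member was placed in the between class although it dipped by 1.40. Gm35135 had a similar course, with p3 means of 6.80, 8.51 and 9.12 after 8.92 in NMPs.

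**Figure D4:**
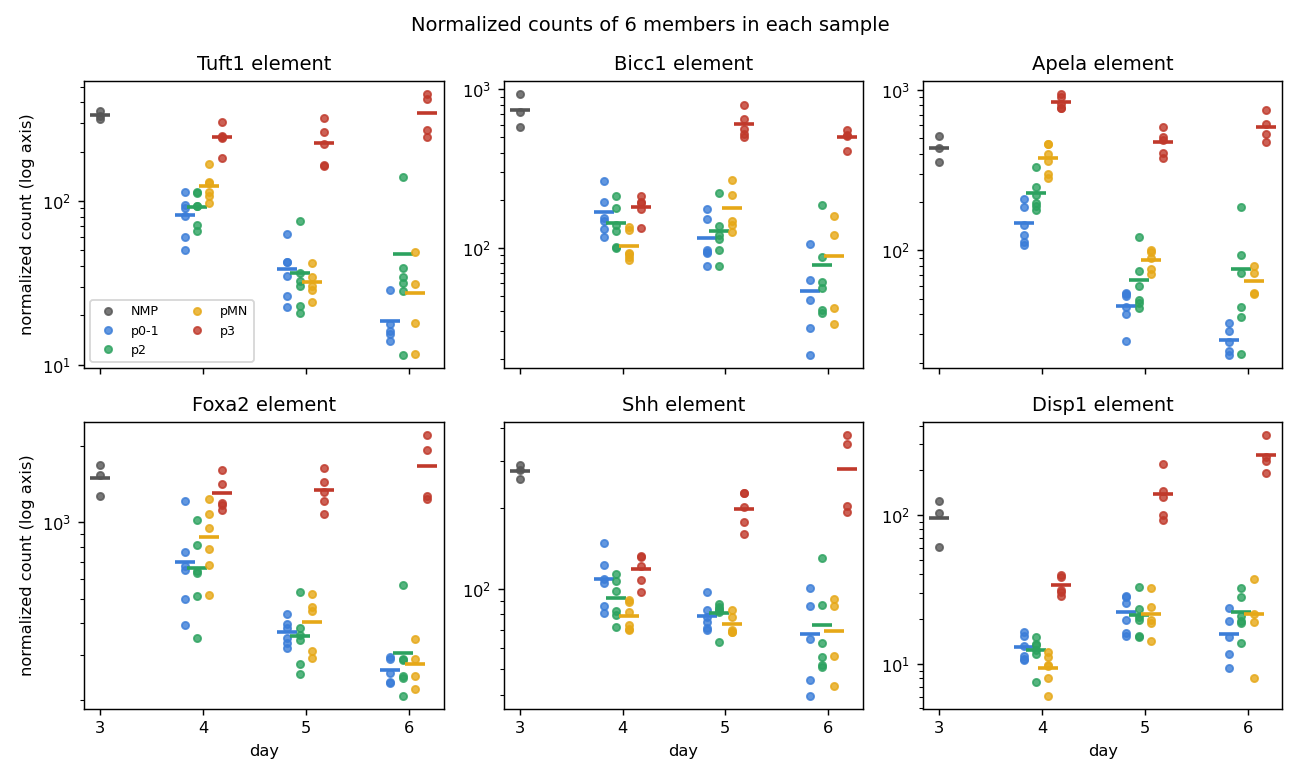
Normalized counts of 6 members on a log axis, with 1 point per sample and a bar at the mean of each group, by day. Tuft1, Apela and Foxa2 elements stay high in p3, while Shh, Bicc1 and Disp1 elements are lower at day 4 than in NMPs and higher again at days 5 and 6.

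Among the reopened members, the element near Polr2m, chr9:71492235-71494530, had the largest margin (2.23) and held the forkhead variant. Counts were 150.3, 154 and 258 in NMPs, 30.3, 48.6, 49.6, 54.0 and 62.6 in p3 at day 4, 71.2, 72.0, 76.4, 87.9 and 109.7 at day 5 and 153, 157, 175 and 207 at day 6. At day 4 pMN had 49.4, 51.6, 52.8, 55.1, 56.0 and 58.8, which overlapped p3. At day 5 the other NPs had between 10.1 and 39.7 (median 24.8, n = 17), below every p3 sample. The difference from pMN was -0.14 ± 0.15 (adjusted p = 0.523) at day 4 and 1.18 ± 0.14 (adjusted p = 4.82e-06) at day 5 by limma. The deepest dips were those of 4930579D09Rik (2.07), Csmd2os (1.88) and Rph3al (1.84), whose p3 means at day 4 were 5.27, 4.83 and 5.06. Of these, the Rph3al element was not called in p3 at day 5, with a difference from pMN of 0.62 ± 0.28 (adjusted p = 0.0793).

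Bmp7, a ligand of the BMP family, had 2 members in its introns that belonged to different classes. The reopened one, chr2:172924919-172925696, had counts of 140.3, 159 and 234 in NMPs, 20.9, 21.0, 26.3, 28.5 and 36.3 in p3 at day 4, 39.5, 43.1, 43.1, 54.8 and 61.3 at day 5 and 54.4, 73.9, 114 and 137 at day 6. At day 4 it overlapped the other NPs, which were between 12.8 and 40.1 (median 22.0, n = 18). At day 5 it lay above all of them, at between 13.7 and 35.8 (median 17.6, n = 17) in those, with a difference of 1.13 ± 0.14 (adjusted p = 5.17e-06) from pMN by limma. The kept one, chr2:172866208-172868440, was 56478 bp away and had mean VST of 8.58 in NMPs and 7.24, 6.75 and 6.82 in p3. Arid3b, a gene for an ARID-domain DNA-binding protein, likewise had a kept and a between member, 4226 bp apart in its introns, with day 5 differences of 1.53 ± 0.13 (adjusted p = 1.36e-07) and 1.13 ± 0.18 (adjusted p = 5.28e-05) from pMN.

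Hipk2, a gene for a homeodomain-interacting kinase, also had a kept and a reopened intronic member, 37438 bp apart. In the kept one, chr6:38771044-38771827, counts were 83.6, 111 and 149 in NMPs and higher in p3 at day 4, with 155, 191, 201, 208 and 237. They were 123, 155, 158, 168 and 174 at day 5 and 55.4, 59.4, 149 and 195 at day 6, where both replicate 2 samples were the lower ones. The other NPs had between 21.2 and 110.1 (median 77.6, n = 18) at day 4 and between 29.3 and 103 (median 45.9, n = 17) at day 5, below every p3 sample. At day 6 they had between 4.01 and 101.3 (median 16.3, n = 15), which overlapped p3. The difference from pMN was 1.52 ± 0.15 (adjusted p = 7.3e-07) at day 4 and 1.88 ± 0.14 (adjusted p = 3.83e-08) at day 5 by limma. In the reopened one, chr6:38809266-38810536, the mean VST in p3 was 5.18, 5.91 and 6.71 after 6.64 in NMPs.

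Notch2, a receptor of the Notch pathway, had one of the most accessible kept members, in an intron at chr3:98024152-98026676. Counts were 577, 736 and 937 in NMPs and above all of these in p3 at day 4, with 1428, 1582, 1605, 1627 and 1716. They were 1082, 1187, 1391, 1503 and 1618 at day 5 and 684, 721, 1266 and 1387 at day 6. The other NPs were also open, at between 660.0 and 1359 (median 979, n = 18) at day 4 and between 404 and 1750.0 (median 701, n = 17) at day 5, and overlapped p3 at day 5. At day 6 they were between 150 and 906 (median 222, n = 15), which also overlapped p3. At day 5 the difference was 0.56 ± 0.19 (adjusted p = 0.0249) from p0-1, which was not called, 1.03 ± 0.19 (adjusted p = 0.000292) from p2 and 1.38 ± 0.16 (adjusted p = 2.08e-06) from pMN by limma.

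Promoters were few. Besides Foxa2 they were those of Kctd14, Phox2a, Efcab1, Timp4, Tmem154, Fhit, 2810433D01Rik and Lrrc74b. At Kctd14, chr7:97452122-97454092, mean VST was 7.11 in NMPs and 7.19, 7.04 and 7.76 in p3, and p3 exceeded pMN by 1.47 ± 0.17 (adjusted p = 3.68e-06) at day 4 and 2.03 ± 0.20 (adjusted p = 4.07e-07) at day 5. Phox2a, a homeobox gene of hindbrain motor and noradrenergic neurons, had 9.12 in NMPs and 8.13, 7.91 and 8.44 in p3, with a difference of 1.01 ± 0.12 (adjusted p = 3.73e-06) from pMN at day 5. Timp4, which encodes an inhibitor of metalloproteinases, had p3 means of 8.72, 7.26 and 6.75. It fell between days 4 and 5 in every type, with changes of -1.46 ± 0.17 in p3, -1.81 ± 0.18 in p0-1, -2.10 ± 0.19 in p2 and -2.39 ± 0.17 in pMN (limma, adjusted p = 8.03e-06, 7.14e-07, 1.4e-07 and 6.45e-10). The Fhit promoter element varied widely between samples, and its day 5 difference from pMN was 0.86 ± 0.67 (adjusted p = 0.305).

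Gene lists give the setting of the named members. Of the 314 elements annotated to genes of the p3 and floor plate list, 5 (1.59%) were members, belonging to Foxa2, Lmx1b, Shh, Slit1 and Slit3, against 0.211% of all elements. At day 5, 59 of the 314 (18.8%) were higher and 26 (8.28%) lower in p3 than in pMN, where 8.39% and 12.1% of all elements were, with a median difference of 0.24, against 0.03 over all elements. Of 161 Hedgehog pathway elements, 2 were members (Disp1 and Sufu), and 13 (8.07%) were higher and 22 (13.7%) lower than in pMN. The NMP and tailbud list had 1 member (Cdx2) of 198 and 52 NMP-only elements, with 13 (6.57%) higher and 27 (13.6%) lower. The pluripotency, the dorsal and intermediate neural, and the endoderm and axial mesoderm lists had 1 member each, near Klf5 (of 126), Dbx1 (of 330) and Krt8 (of 94). The Wnt response (235), FGF-ERK feedback (184), FOX factor (181) and Hox (58) lists had 0. The member named for Dbx1 lay 131121 bp from that gene, in an intron of Nav2.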

How the data were processed

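Per the labels, the authors differentiated ES cells in independent replicates. With nf-core/atacseq they aligned reads to mm10, called consensus peaks with MACS and counted reads in each. The deposited values are log2-scale VST values, made by the authors with DESeq2 for 111638 elements. Distances to start sites and annotations are those of HOMER in the deposited annotation of 133549 elements. The transformation was inverted to normalized counts (VST 2.70 at a count of 0) and to reads, of which those under 1000 were whole within 3.58e-11. Size factors ran from 0.495 to 1.50. Depth was 9298160 to 29985325 reads.

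The members and lists were chosen with earlier results of these data known. Tests used limma 3.58.1 in R 4.3.3 on VST values of all elements, letting the variance follow mean accessibility (2-sided). Each fit held only the groups it compared, SAG concentrations were pooled, and no filter on low values was applied. P values were adjusted by Benjamini-Hochberg over 111638 elements, and a call needed an adjusted p under 0.01 and a difference over 1. The fits were tested on simulated data. P values measure the spread between the deposited samples. Intervals cover counting error only.

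Elements named were the 10 of largest margin, the 3 most accessible kept and 3 deepest reopened members, the best member of each listed gene, genes with 2 members, promoters, and the 3 on either side of the threshold, 51 members in all. Few markers had an element annotated as promoter, so the nearest within 3000 bp of the start site was used for the rest, a choice made after seeing the data. Some named elements and markers are not reported here. Sequences were read from GRCm38 (RefSeq), where 6345 of 6548 promoter elements (96.9%) had a start site within 1000 bp and 0 elements ran past a chromosome's end. Motif searches covered 25 motifs on both strands of the central 300 bp. No sequence was printed for the 3 members on chromosome 18.

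Replicate numbers are those of the titles. In 15 samples the description gave another number. Deviations from group means correlated between samples of the same number, with a median r of 0.38 over 77 pairs at day 4, of which 70 were over 0.1, and 0.32 over 71 pairs at day 5, all over 0.1 (different numbers, -0.18 and -0.18). Same-numbered samples were therefore read as paired at day 5, from the data and not the labels. The main fits did not use this pairing, and samples of the same number at different SAG concentrations entered them as separate samples. Differences ± SE and adjusted p values of named elements come from those fits. The pairing entered only in the alternative with a replicate block. Alternatives were a replicate block, leaving out each replicate number, a mean over 100 normalized counts, log2 of normalized counts plus 1, limma-voom on recovered reads, a difference over 2, other levels and margins of the rule, and, for SAG, days 4 and 5 only. Python 3.11.15, numpy 2.4.6, pandas 2.3.3 and scipy 1.17.1 were also used.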

Additional observations from a re-analysis of the deposited data

Results flagged for a closer look

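Of 156 groups of samples examined for a lone sample, 15 had one, and chance flags about 1 in 20 groups. Of the 15, 9 were the same library, day 6 p2 with 100 nM SAG, replicate 3. Its median VST over the members was 6.47, where the other day 6 p2 samples were at 5.41 to 5.75. Its normalized counts were 101.3 at the Hipk2 element (others 13.6 to 24.1), 186 at Bicc1 (39.0 to 87.9), 366 at Lmx1b (141 to 198), 566 at Foxa2 (207 to 288), 37.7 at Bmp7 (9.40 to 17.8), 140.3 at Tuft1 (11.4 to 39.0), 698 at Notch2 (175 to 366) and 385 at Cdx2 (242 to 275). Each of these was the highest of its group, and the day 6 p2 means enter the rule. Without this library the rule found 250 elements, with 161 kept and 24 reopened.

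The other 6 lone samples were spread over groups. They were the Hipk2 element in day 5 pMN with 500 nM, replicate 3 (49.6, others 29.3 to 31.3), Polr2m in day 6 p0-1 with 0 nM, replicate 2 (23.5, others 10.5 to 13.9), Tuft1 in day 5 p2 with 100 nM, replicate 3 (75.1, others 20.8 to 36.1), Tuft1 in day 6 p0-1 with 0 nM, replicate 3 (28.7, others 14.0 to 17.7), Notch2 in day 5 p0-1 with 0 nM, replicate 3 (1750.0, others 701 to 1053) and Shh in day 5 p2 with 100 nM, replicate 1 (63.2, the lowest, others 82.1 to 87.4).

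The change from day 4 to day 5 differed between cell types. It was more positive in p3 than in p0-1, p2 and pMN together for 38 members (16.1%) by limma. The share called was 2.64% of all elements and 30.5% of p3-only elements. Members and p3-only elements were both chosen as higher in p3 at day 6, which in part sets this direction.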

How the results depend on the processing

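The number of members followed the rule's settings. It was 769 at a margin of 0.5, 15 at a margin of 2, 368 at a level of 6 and 95 at a level of 7.5. Leaving out 1 replicate number gave 198 (without replicate 3) to 375 (without replicate 2) members, 135 to 229 kept and 22 to 45 reopened, and the cause was not tested. Requiring a difference over 2 in place of 1 left 5, 3 and 2 members higher in p3 at day 4 against p0-1, p2 and pMN and 17, 15 and 18 at day 5. Over all elements 633, 207 and 65 were left at day 4 and 1924, 1247 and 1394 at day 5. The same setting left 0 members rising and 0 falling in p3, 1, 4 and 5 falling in p0-1, p2 and pMN, and 0 for the difference in change between p3 and the other NPs. Over all elements 1176 rose and 135 fell in p3, 278, 302 and 303 fell in the others, and 43 were more positive in change. Testing only elements with a mean over 100 normalized counts, which drops members, gave 17 against pMN at day 4, 48, 65 and 69 at day 5, 6 rising in p3, 9, 19 and 37 falling in p0-1, p2 and pMN, and 12 for the difference in change. Over all elements tested there, 472 were higher than in pMN at day 4 and 2187, 2089 and 2061 were higher at day 5. Of them 2887 rose in p3, 901, 971 and 970 fell in p0-1, p2 and pMN, and 353 were more positive in change. On log2 of normalized counts plus 1, 43 members were higher than in pMN at day 4 and 41 fell in p0-1. Over all elements 4268 and 8310 did, against 2446 and 4178 in the main fits. Limma-voom on recovered reads gave 71 against p0-1 and 45 against pMN at day 4, 11 falling in p3 and 42 falling in p0-1. Over all elements these counts were 6633, 5160, 7598 and 8552, against 4811, 2446, 3610 and 4178 in the main fits. Leaving out replicate numbers gave 28 (without replicate 3) to 55 (without replicate 2) members higher than in p0-1 at day 4, 2 (without replicate 2) to 7 falling in p3 and 20 (without replicate 1) to 33 for the difference in change. Over all elements, 1834 and 4076 were higher than in p0-1 without replicates 3 and 2. In p3, 2773 fell without replicate 2, 4265 without replicate 1 and 3641 without replicate 3. In change, 1494 were more positive without replicate 1 and 2932 without replicate 2. The cause was not tested beyond the construction of each setting. Of 126 counts under these alternatives that answer a comparison, 89 moved by less than 1.5 times. The median change of the members in p3 from day 4 to day 5 (0.03) became -0.11 with a mean over 100 normalized counts and -0.03 without replicate 1.

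With the replicate number as a block, members higher in p3 than in p0-1, p2 and pMN were 51, 38 and 26 at day 4 and 116, 155 and 154 at day 5. Over all elements 4581, 2695 and 2287 were at day 4 and 10590, 9222 and 9370 at day 5. Members that rose and fell in p3 were 12 and 7, those that fell in p0-1, p2 and pMN were 26, 43 and 59, and 39 differed in change. Over all elements 11241 rose and 4074 fell in p3, 4185, 5002 and 5160 fell in the others, and 3268 were more positive in change. Members lower in p3 than in pMN at day 4 were 2, where 1 was without the block. Over all elements these were 6401 and 6032. For p3 against pMN at day 5, all 51 named members were on the same side of the threshold with the block. The shallowest libraries were those of day 4 p3 at 100 nM, which limits the precision of the day 4 p3 values.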
